A study of Sus scrofa with 6 samples.

Results

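Endothelial cells line the blood and lymph vessels of the jejunum, the stretch of small intestine between duodenum and ileum, and 10 genes that mark them were described here in weaned piglets with and without transport. The 10 were fixed by symbol: PECAM1, CDH5, VWF, FLT1, KDR, TEK, TIE1, LYVE1, PROX1 and MADCAM1. The deposited table of 24358 pig genes held 9 of them by symbol. MADCAM1 carried only an identifier, ENSSSCG00000039500, and was found by its description in the table, so all 10 had values. The data are RNA sequencing of whole jejunum of a Large White x Landrace cross, with 3 libraries of piglets that were not transported (controls 1 to 3) and 3 of transported piglets (transports 1 to 3). All 6 are labelled healthy. Age, journey length and time of sampling were not given in the sources used here, nor whether the 3 libraries of a group were separate animals, so p-values measure the spread between these libraries, which may be technical.

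Blood endothelium is held together by adhesion proteins such as VE-cadherin and PECAM-1, and it is maintained by growth factor signals through the VEGF receptors and the angiopoietin receptors. In a villus, a dense capillary net lies under the epithelium and takes up sugars and amino acids, while a central lymph vessel, the lacteal, takes up chylomicrons. Venules of the gut wall display the addressin MAdCAM-1, to which lymphocytes bearing the integrin alpha4beta7 attach.

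Libraries held 48208451 to 53739246 counts, so that counting error is small for all members except PROX1. Control 2 held little muscle and connective tissue RNA: the summed FPKM (fragments scaled to transcript length and library size) of 7 visceral smooth muscle genes was 58.0 there against 995 to 2704 in the other 5 libraries. Transport 3 held ileal and B cell RNA, with 6836 FPKM of the ileal FABP6 against 2.83 to 13.8 elsewhere, and its log2 CPM correlated least with the others (median r = 0.818 across genes). Both libraries were kept in the main test and in every group mean below. Where only a mean and SD are given, their single values are not shown. No endothelial gene passed the test with or without control 2 and transport 3.

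No endothelial gene passed the test for a difference between transported and control piglets. In edgeR's quasi-likelihood test with Benjamini-Hochberg adjustment, 0 of 9 tested members had an adjusted p under 0.05, where 2 of 12012 genes did (0.0167%), CLDN2 and the uncharacterized ENSSSCG00000031902, both named after their values were seen. At an unadjusted p under 0.05 there were 0 of 9 members against 5.13% of all genes, and DESeq2 called 0 of 9 against 0.416%. The lowest adjusted p of a member was 0.890, for MADCAM1. With 1 library left out, edgeR's unadjusted p was 0.0406 for KDR without control 1 and 0.0448 for MADCAM1 without transport 3. Neither passed after adjustment. The groups overlapped in FPKM for all 10 members, while 11.1% of all genes tested had groups without overlap. For 6 of the 10 (PECAM1, CDH5, FLT1, KDR, TEK and LYVE1) the 3 transport values lay inside the range of the 3 controls, which held for 8.44% of all genes tested. PROX1 was below the filter of 1 FPKM in at least 3 libraries and had no place in the main test.

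**Figure D1:**
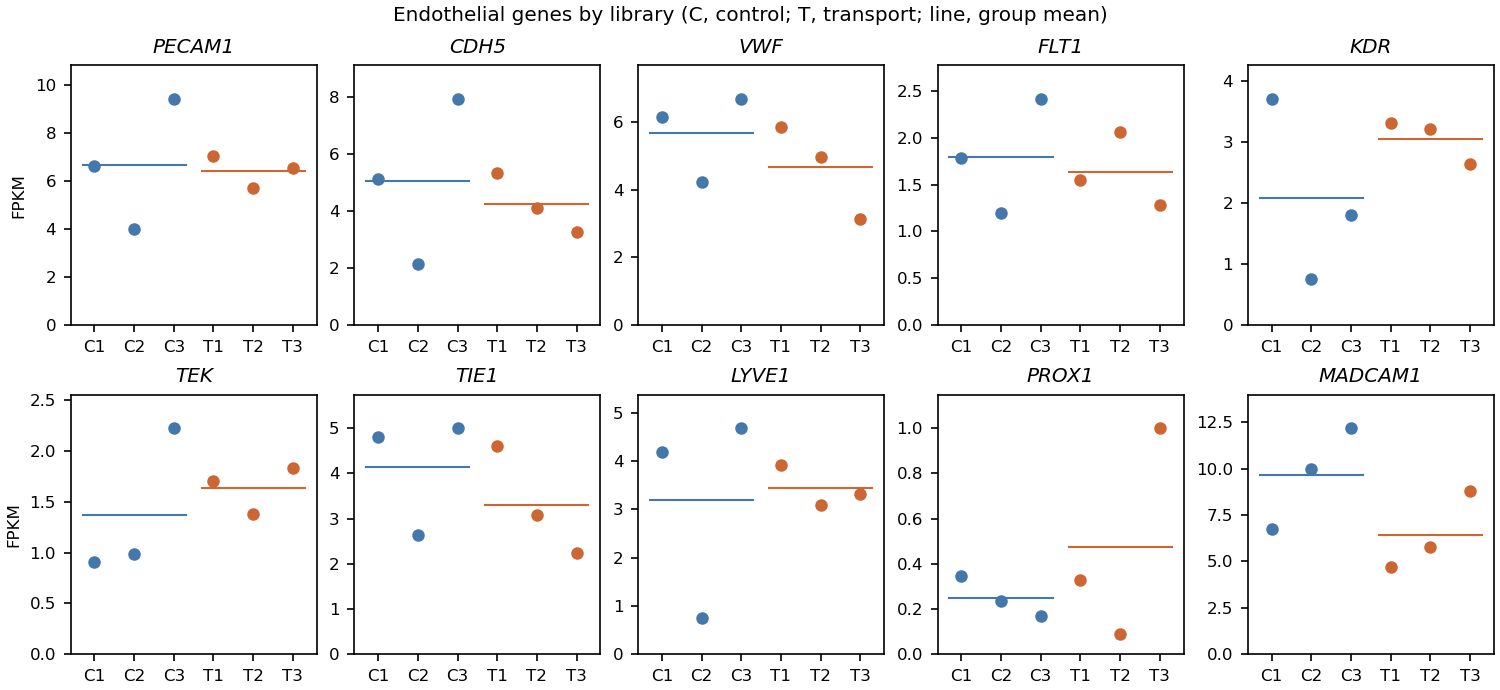
FPKM (y axis) of the 10 endothelial genes in each library (x axis; C, control; T, transport), with a line at the mean of each group. Control 2 is low and control 3 high for PECAM1, CDH5, FLT1 and LYVE1, with the transport points between them, and MADCAM1 and PROX1 follow other patterns.

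PECAM1, an adhesion molecule of endothelial junctions that platelets and leukocytes also carry, had 6.65, 3.99 and 9.43 FPKM in controls 1 to 3 and 7.05, 5.72 and 6.54 in transports 1 to 3. The lowest and the highest value were both controls, and the transport values lay close together. Its group means were 6.69 ± 2.72 and 6.44 ± 0.669 FPKM (SD, n = 3 each), with a log2 fold change of -0.10 ± 0.32 (SE) (edgeR adjusted p = 0.980). The 95% interval ran from 0.549-fold to 1.58-fold. The gene ENSSSCG00000017277 spans 14636641 to 14723293 on the plus strand of chromosome 12 and shares 575 bases with MILR1 of the other strand. MILR1 had 3663 counts in transport 3 and 79 to 282 in the other libraries, and since the use of strand in counting is not given, reads of those shared bases cannot be assigned.

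CDH5, which encodes VE-cadherin, the adhesion protein of the endothelial adherens junction, had 5.13, 2.14 and 7.94 FPKM in controls 1 to 3 and 5.35, 4.10 and 3.28 in transports 1 to 3. It followed PECAM1 in the controls, with control 2 lowest and control 3 highest. The means were 5.07 ± 2.90 and 4.24 ± 1.04 FPKM (SD, n = 3 each), a log2 fold change of -0.28 ± 0.47 (SE) (edgeR adjusted p = 0.948) and an interval of 0.378-fold to 1.79-fold. In bulk tissue a lower level can reflect fewer endothelial cells, less RNA per cell or more RNA of other cells or tissue layers. These cannot be told apart. CDH5 lies on the plus strand of chromosome 6 at 27108499 to 27142921.

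VWF encodes von Willebrand factor, which endothelial cells store in granules and which binds platelets. Its FPKM was 6.15, 4.23 and 6.67 in controls 1 to 3 and 5.86, 4.98 and 3.14 in transports 1 to 3. Here transport 3 was the lowest library and control 2 the next. The group means of 5.69 ± 1.29 and 4.66 ± 1.39 FPKM (SD, n = 3 each) differed by a log2 fold change of -0.32 ± 0.34 (SE) (edgeR adjusted p = 0.916). VWF and PECAM1 parted in transport 3, where the ratio of PECAM1 to VWF in FPKM was 2.08 against 0.942 to 1.41 in the other 5 libraries. Transport 3 was also the library rich in B cell RNA and in MILR1 counts, and the part of either in that ratio was not tested. VWF lies on chromosome 5, plus strand, from 64517481 to 64678840.

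The VEGF receptors FLT1 and KDR ranked the libraries differently. KDR, the main signalling receptor for VEGF-A in blood endothelium, had 3.71, 0.755 and 1.80 FPKM in controls 1 to 3 and 3.32, 3.21 and 2.64 in transports 1 to 3. Control 1 was the highest library and control 2 the lowest, so that the controls spanned more than the whole transport group. The means were 2.09 ± 1.50 and 3.06 ± 0.362 FPKM (SD, n = 3 each), with a log2 fold change of 0.49 ± 0.57 (SE) and an edgeR adjusted p of 0.921. That value was 1.26 without control 1 and 0.10 without control 2, and it failed the test each time (adjusted p = 0.996 and 0.999). The interval of 0.556-fold to 3.56-fold is the widest upward among the members tested.

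FLT1, a VEGF receptor with strong binding and weak kinase activity whose soluble form traps the ligand, varied least among the members, with 2.01-fold between its highest and lowest library. It had 1.78, 1.20 and 2.41 FPKM in controls 1 to 3 and 1.55, 2.06 and 1.29 in transports 1 to 3. Controls 2 and 3 were again the extremes. Its log2 fold change was -0.17 ± 0.38 (SE) (edgeR adjusted p = 0.965). The ratio of KDR to FLT1 in FPKM was 2.08, 0.630 and 0.745 in controls 1 to 3 and 2.14, 1.56 and 2.06 in transports 1 to 3. KDR thus exceeded FLT1 in 4 of 6 libraries, and control 1 had a ratio like those of the transport group. KDR lies on the minus strand of chromosome 8 at 41809115 to 41856379 and FLT1 on the minus strand of chromosome 11 at 5619970 to 5794957.

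TEK, also called TIE2, is the receptor of the angiopoietins, and TIE1 is its relative that modulates it without binding them directly. TEK had 0.908, 0.990 and 2.22 FPKM in controls 1 to 3 and 1.70, 1.38 and 1.83 in transports 1 to 3. Controls 1 and 2 were low and control 3 high, which sets TEK apart from TIE1 in control 1. TIE1 had 4.81, 2.63 and 5.0 FPKM in controls 1 to 3 and 4.61, 3.07 and 2.25 in transports 1 to 3. Its lowest library was transport 3, as for VWF.

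With any 1 library left out, TEK ran from 0.00541 to 0.66 and TIE1 from -0.68 to -0.13 in log2 fold change. For TEK the log2 fold change was 0.21 ± 0.39 (SE) (edgeR adjusted p = 0.954), and for TIE1 it was -0.36 ± 0.41 (SE) (edgeR adjusted p = 0.919). TIE1 was above TEK in every library, by a ratio of 5.29 in control 1, 1.23 in transport 3 and 2.22 to 2.70 in the other libraries. TEK lies on the minus strand of chromosome 1 at 195937431 to 196052751, and TIE1 on the minus strand of chromosome 6 at 167919671 to 167940579.

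LYVE1 encodes a hyaluronan receptor of lymphatic endothelium that some tissue macrophages also carry. It had 4.17, 0.746 and 4.67 FPKM in controls 1 to 3 and 3.91, 3.09 and 3.32 in transports 1 to 3, from 171 counts in control 2 and 719 to 1084 in the other 5. Control 2 stood alone at the bottom, and the other libraries lay close together. The 6 macrophage genes of the marker list were also lowest in sum there, at 59.7 FPKM against 93.0 to 224, though CD163, CD68 and MRC1 were not lowest in control 2, and the part of macrophages in the LYVE1 value was not tested. The means of 3.20 ± 2.14 and 3.44 ± 0.420 FPKM (SD, n = 3 each) gave a log2 fold change of 0.06 ± 0.61 (SE) (edgeR adjusted p = 0.993). Without control 2 the log2 fold change was -0.40 (adjusted p = 0.999). LYVE1 lies on the plus strand of chromosome 2 at 48937153 to 48955802.

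PROX1, the transcription factor that specifies lymphatic endothelium and is also made by other cell types, was the least abundant member. It had 0.345, 0.234 and 0.169 FPKM in controls 1 to 3 and 0.329, 0.0890 and 0.999 in transports 1 to 3, from 82, 57 and 42 and from 81, 23 and 262 counts. Transport 3 was the highest library and transport 2 the lowest, so the transport group held both extremes. With no filter on low values its log2 fold change was 0.75 ± 0.84 (SE) (edgeR adjusted p = 0.898). Unlike LYVE1, PROX1 was not lowest in control 2. It lies on the minus strand of chromosome 9 at 129532180 to 129581169.

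The log2 of the summed FPKM of LYVE1 and PROX1 over that of PECAM1, CDH5, KDR and TIE1 was taken for each library. This log2 ratio does not isolate a lymphatic share of the vessel RNA. LYVE1 made up most of the upper sum and is also carried by some macrophages, and the lower genes are not specific to blood vessels. It was -2.17, -3.28 and -2.32 in controls 1 to 3 and -2.26, -2.34 and -1.77 in transports 1 to 3. Control 2 was the lowest and transport 3 the highest, and the remaining 4 libraries differed little. The means were -2.59 ± 0.604 and -2.12 ± 0.310 (SD, n = 3 each), a difference of 0.47 with p = 0.50 in a two-sided exact permutation test, whose smallest possible p here is 0.1.

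MADCAM1, the addressin of gut venules, had the highest median level of the 10. It had 6.78, 9.98 and 12.2 FPKM in controls 1 to 3 and 4.72, 5.79 and 8.82 in transports 1 to 3. Transport 3 lay above control 1, and control 2 was the next highest library after control 3, where most other members had it low. The means were 9.65 ± 2.72 and 6.44 ± 2.13 FPKM (SD, n = 3 each), with a log2 fold change of -0.65 ± 0.35 (SE) and an edgeR adjusted p of 0.890. The 95% interval, 0.357-fold to 1.13-fold, included no change. Relative to PECAM1, MADCAM1 was at 2.50 in control 2 and at 0.669 to 1.35 in the other 5 libraries. It lies on the minus strand of chromosome 2 at 77784612 to 77789067, inside an uncharacterized gene of the other strand that had 7 to 25 counts.

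**Figure D2:**
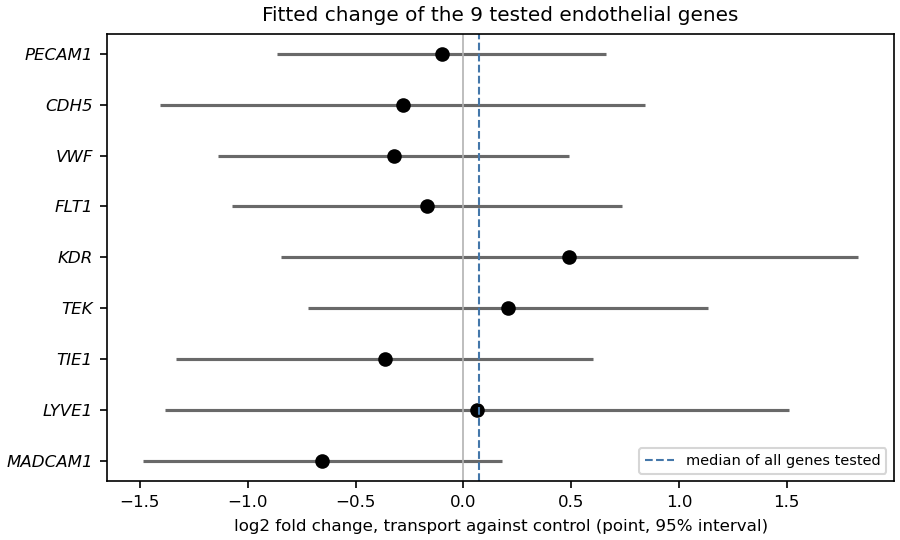
Log2 fold change of transport against control (x axis) for the 9 tested endothelial genes (y axis), with 95% intervals from edgeR and a dashed line at the median of all genes tested, 0.07. Every interval includes 0; MADCAM1 has the lowest estimate, -0.65, and KDR the highest, 0.49.

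The fitted changes of the 9 tested members had a median of -0.17, beside 0.07 over all 12012 genes. Of the members, 3 were above and 6 below 0, where 6829 of all genes tested were above and 5183 below. The median was 0.13 without control 3 and below 0 without any other single library, down to -0.40 without control 2. Its sign thus depended on control 3.

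Per length, the median FPKM over the 6 libraries fell from 7.80 for MADCAM1 through 6.59 for PECAM1, 5.42 for VWF, 4.61 for CDH5, 3.84 for TIE1, 3.61 for LYVE1, 2.93 for KDR, 1.66 for FLT1 and 1.54 for TEK to 0.281 for PROX1. Only the step from TEK to PROX1 held in all 6 libraries. Each of the other neighbours in this order changed places in at least 1 library. The widest range between libraries was that of PROX1 at 11.2-fold, followed by LYVE1 at 6.26-fold, KDR at 4.91-fold and CDH5 at 3.70-fold, while the other 6 ranged from 2.01-fold to 2.58-fold.

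Controls 2 and 3 held both the lowest and the highest value for PECAM1, CDH5, FLT1 and LYVE1, while the lowest library was transport 3 for VWF and TIE1 and transport 1 for MADCAM1. Control 3 was the highest library for 8 of the 9 tested members, all except KDR, where it was the highest for 14.0% of all genes tested. Control 2 was the lowest for 5 of 9 (PECAM1, CDH5, KDR, FLT1 and LYVE1), against 23.1% of all genes. The mean of the 9 members in centred log2 CPM was -0.63 in control 2 and 0.44 in control 3, with the other 4 libraries from -0.29 to 0.25. These are descriptions of single libraries, with no test.

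**Figure D3:**
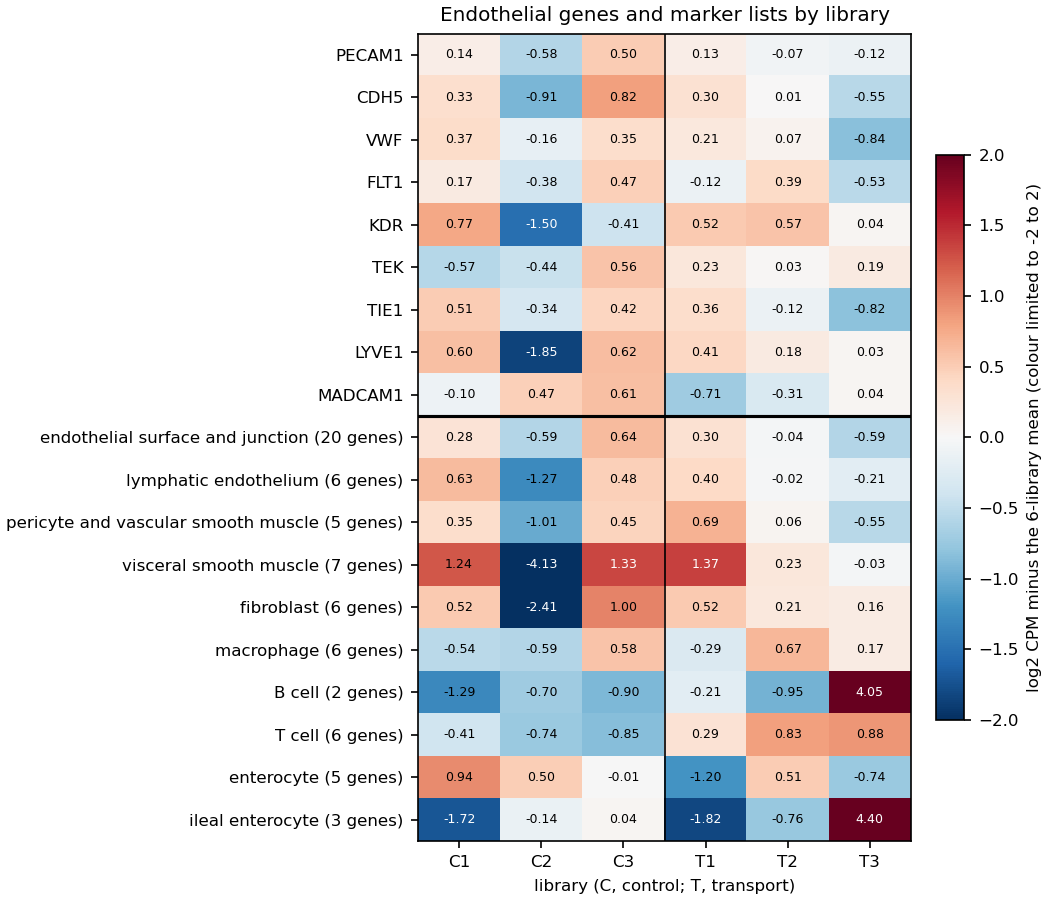
Log2 CPM minus the 6-library mean for the 9 tested endothelial genes (rows above the line) and as the mean of each marker list (rows below), by library (columns; C, control; T, transport). The members reach -1.85 in control 2, where visceral smooth muscle is at -4.13 and fibroblast genes at -2.41; in transport 3 the B cell and ileal lists are at 4.05 and 4.40.

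Relative to the other libraries, control 2 kept a higher median share of the endothelial members than of muscle and fibroblast genes. As a percentage of the median of the other 5 libraries, control 2 held 19.1% of LYVE1, 23.5% of KDR, 41.8% of CDH5, 60.0% of PECAM1, 72.2% of VWF and 147% of MADCAM1, with a median of 58.1% over the 9 members. The median over all genes tested was 93.8%. For 7 visceral smooth muscle genes, among them the actin ACTG2 and the intermediate filament gene DES, the median was 1.99%, and for 6 fibroblast genes, among them COL1A1 and PDGFRA, it was 11.0%. The 20 tested genes of endothelial surface and junctions stood at 59.1%, the 6 lymphatic genes at 28.7% and the 5 pericyte and vascular smooth muscle genes at 39.7%. The 3 tested angiopoietin genes and regulators stood at 9.3%, below the fibroblast genes. Single genes of the lists overlapped, as ACTA2 of smooth muscle at 32.2% and LUM of fibroblasts at 30.4% were above LYVE1 and KDR. The part of tissue sampled in these levels was not tested.

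**Figure D4:**
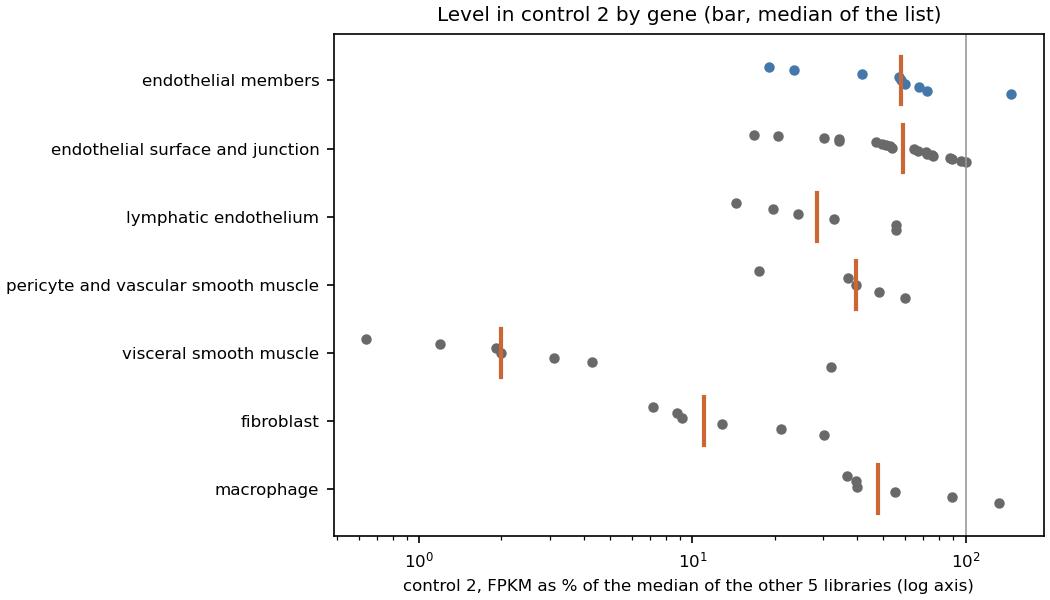
FPKM in control 2 as a percentage of the median of the other 5 libraries (x axis, log scale), a point per tested gene, by list (y axis), with an orange bar at the median of each list. Endothelial members run from 19.1% to 147%, while visceral smooth muscle genes run from 0.639% to 32.2%.

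Other genes of the vessel wall were described from 5 lists with 73 symbols, of which 67 were in the table and 47 were tested. None passed the test, and the lowest edgeR adjusted p was 0.890. An unadjusted p under 0.05 was found for 3 of the 47, against 5.13% of all genes. Estimates after transport were higher for 17 and lower for 30, with a median log2 fold change of -0.11. Over all genes tested, 6829 were higher and 5183 lower, with a median of 0.07. Groups did not overlap for 1 of the 47, or 2.13%, below the 11.1% of all genes. That gene was FLI1, an ETS transcription factor of endothelial and blood cells, with 3.03, 1.45 and 1.99 FPKM in controls 1 to 3 and 3.50, 4.14 and 20.2 in transports 1 to 3. The high value fell in transport 3, together with the B cell genes, whose part was not tested. FLI1 had a log2 fold change of 1.96 ± 0.70 (SE) (edgeR adjusted p = 0.890).

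Among the VEGF ligands, VEGFA, the main growth factor of blood endothelium, had 27.2 ± 9.0 FPKM in controls and 19.6 ± 8.64 after transport, and VEGFB 7.95 ± 1.68 and 11.7 ± 3.61 (SD, n = 3 each). The lymphatic growth factors were low in control 2: VEGFC had 0.978 FPKM there against 1.36 to 3.87 in the other 5 libraries, and VEGFD 0.143 against 1.70 to 5.48. Of this list of 8, 5 were tested, with 2 higher and 3 lower estimates. Of 6 angiopoietin genes and regulators, 3 were tested, among them PTPRB, the phosphatase that acts on TEK, at 0.960 ± 0.394 and 1.15 ± 0.312 FPKM, and SVEP1, an extracellular matrix protein of lymphatic growth, at 1.07 ± 0.826 and 1.41 ± 0.606. The ligands ANGPT1 and ANGPT2 were below the filter, at 0.124 to 0.623 and 0.320 to 1.40 FPKM. ANGPT4, also below it and chosen after its values were seen, had 0.400, 0.432 and 0.635 FPKM in controls and 0.139, 0.211 and 0.115 after transport, without overlap.

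The surface and junction list had 17 of 20 tested genes with a lower estimate and a median log2 fold change of -0.34, with no gene past the test. Of all 12012 genes tested, 5183 had a lower estimate, and the median was 0.07. THBD, thrombomodulin, the endothelial anticoagulant receptor, had 2.16, 1.41 and 3.91 FPKM in controls and 1.47, 1.25 and 0.893 after transport. Transport 1 lay just above control 2, so the groups overlapped, and the log2 fold change was -1.07 ± 0.46 (SE) (edgeR adjusted p = 0.890). ADGRL4, an adhesion receptor of endothelium, had 1.43 ± 0.540 and 0.910 ± 0.224 FPKM. Control 3 was the highest library for 17 of the 20, while transport 3 was the lowest for 10, against 22.9% of all genes, and control 2 for 8. PLVAP, the protein of the diaphragms of fenestrated capillaries, was chosen after its values were seen and had 24.9, 19.2 and 34.8 FPKM in controls and 21.2, 22.0 and 12.2 after transport.

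Transcription factors and Notch genes of endothelium had 8 higher and 6 lower estimates among 14 tested. Transport 3 was the highest library for 4 of the 14. LMO2 reached 26.2 FPKM and ETS1 44.2 FPKM there, and KLF4 reached 62.9 FPKM in transport 2. In the other libraries they had at most 4.38, 14.3 and 15.2 FPKM. All 3 were chosen after their values were seen, and the part of other cell types was not tested. DLL4, a Notch ligand of sprouting and arterial endothelium, had 2.16, 3.29 and 3.36 FPKM in controls and 1.01, 1.10 and 2.20 after transport. Transport 3 exceeded control 1 by a small margin, so the groups overlapped. The log2 fold change was -1.12 ± 0.37 (SE), an unadjusted p of 0.0203 and an edgeR adjusted p of 0.890. In control 2 DLL4 stood at 152% of the median of the other 5 libraries, where the 14 genes had a median of 63.2%. The part of other cell types in its level was not tested. SOX18, a factor of blood and lymph endothelium chosen after its values were seen, had 5.87, 3.82 and 8.77 FPKM in controls and 5.29, 2.17 and 1.93 after transport.

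On the lymphatic list, 6 of 14 genes were tested, with 1 higher and 5 lower estimates and a median log2 fold change of -0.10. STAB1, a scavenger receptor also of macrophages, had 3.17 ± 0.904 and 4.19 ± 1.24 FPKM, and NRP2, a coreceptor for VEGF-C, 3.79 ± 2.10 and 3.28 ± 1.69 (SD, n = 3 each). For 5 of the 6, control 2 was the lowest library. CCL21, the chemokine that draws leukocytes into lymph vessels, had 2.77 FPKM in control 2 against 7.45 to 13.8 in the others, and PDPN, podoplanin, 1.14 against 3.95 to 7.90, both chosen after their values were seen. LYVE1 shared this pattern and PROX1 did not.

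Of 8 pericyte and vascular smooth muscle genes, 5 were tested and none passed, with RGS5, a pericyte regulator of G protein signalling, at 8.72 ± 5.04 and 12.1 ± 4.18 FPKM and PDGFB, the endothelial signal that recruits pericytes, at 3.57 ± 1.12 and 3.04 ± 0.906.

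MADCAM1 acts with a lymphocyte partner, and the homing list showed values on that side. The partner integrin subunits are ITGB7 and ITGA4, chosen here after their values were seen. ITGB7 had 9.69, 7.60 and 8.75 FPKM in controls 1 to 3 and 15.3, 11.2 and 13.4 in transports 1 to 3, with every transport library above every control. Its log2 fold change was 0.55 ± 0.24 (SE) (edgeR adjusted p = 0.890), so it did not pass. CCR9, the chemokine receptor of gut-homing lymphocytes, had 1.33, 1.22 and 1.44 FPKM in controls and 2.70, 2.39 and 2.09 after transport, again without overlap (log2 fold change 0.80, standard error 0.30, edgeR adjusted p = 0.890).

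Other genes of the same list showed other patterns. CCL25, the epithelial chemokine that CCR9 binds, had 731 ± 196 and 712 ± 412 FPKM, and ITGA4 1.15, 1.39 and 2.39 in controls and 1.99, 2.21 and 5.88 after transport. SELP, the P-selectin of activated endothelium and platelets, also chosen after its values were seen, had 1.48, 1.94 and 3.63 FPKM in controls and 1.10, 1.27 and 1.08 after transport, lower without overlap (log2 fold change -1.06, standard error 0.42, edgeR adjusted p = 0.890). ITGAL, a leukocyte integrin subunit, had 3.48 ± 0.815 FPKM in controls and 4.04, 5.80 and 27.8 in transports 1 to 3, so that transport 3 carried the higher mean. VCAM1, an endothelial and stromal adhesion molecule, reached 60.9 FPKM in transport 3, with the other 5 libraries from 4.75 to 12.6. Of the 14 tested genes of this list, 2 were higher and 1 lower without overlap, 21.4% in all against 11.1% of all genes (6.93% higher and 4.19% lower), and none passed the test.

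**Figure D5:**
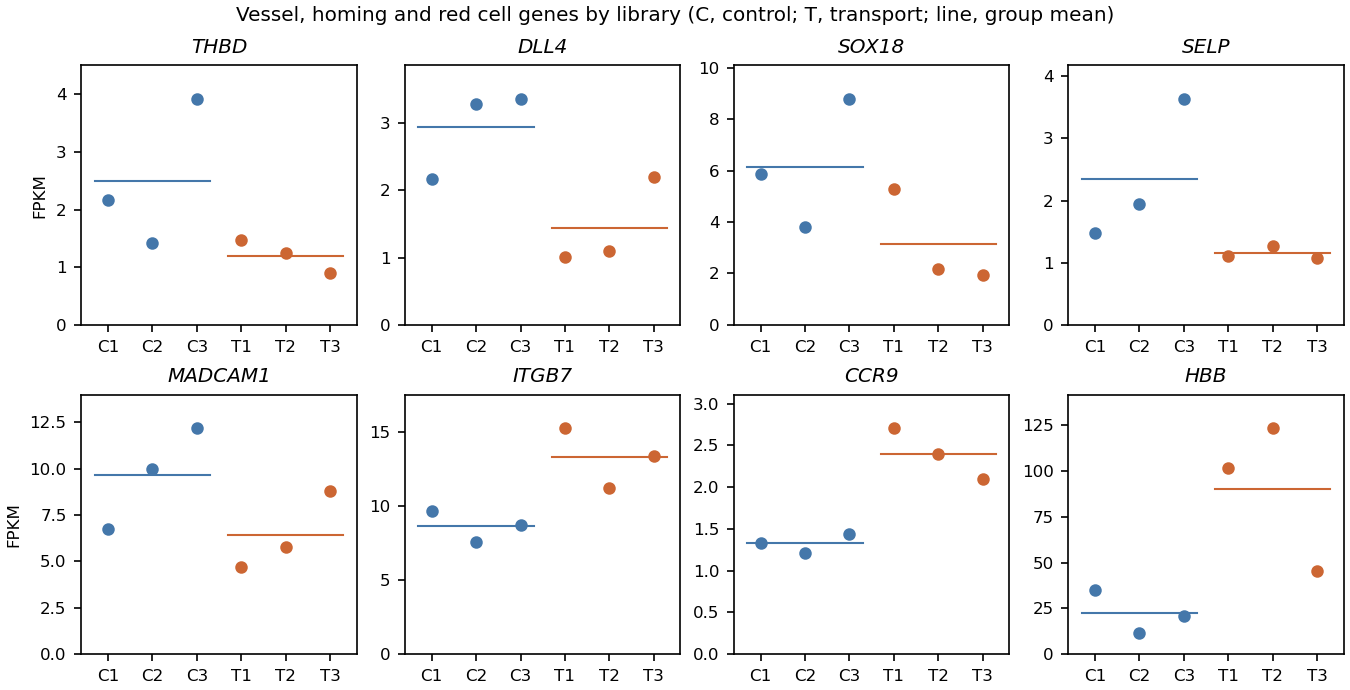
FPKM (y axis) of 8 vessel, homing and red cell genes in each library (x axis; C, control; T, transport), with a line at each group mean. The groups do not overlap for SELP (lower after transport) and for ITGB7, CCR9 and HBB (higher); they overlap for THBD, DLL4, SOX18 and MADCAM1, and none of the 8 passed the test.

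Markers of other cells in the samples moved as follows, and their part in the vessel values was not tested. All 6 T cell genes tested had higher estimates, with 5 of 6 higher without overlap (6.93% of all genes tested), among them CD4 at 1.37 ± 0.243 and 5.37 ± 0.888 FPKM and CD3D at 1.26 ± 0.286 and 5.30 ± 0.599. The 6 macrophage genes summed to 59.7 to 166 FPKM in controls and 120 to 224 after transport, with C1QA at 36.3 ± 17.7 and 59.7 ± 23.3 and CSF1R at 3.85 ± 1.76 and 5.92 ± 1.78. Estimates were higher for 4 and lower for 2 of these, the latter being CD163 and MRC1, and most of the sum came from C1QA and C1QB. The B cell list summed to 6.80 to 8.88 FPKM in controls and to 12.3, 8.11 and 593 in transports 1 to 3. Within it CD79A and CD79B reached 66.1 and 186 FPKM in transport 3, with at most 9.06 and 2.97 elsewhere. Of 5 enterocyte genes tested, 2 had higher and 3 lower estimates, and 2 were lower without overlap (4.19% of all genes tested): FABP2, a fatty acid binding protein, had 562 ± 255 and 91.7 ± 38.8 FPKM, and APOA4, a chylomicron apolipoprotein, 926 ± 166 and 148 ± 129. The brush border enzyme gene SI had 27.3 ± 20.8 and 73.6 ± 44.9 FPKM, APOB 28.4 ± 15.8 and 37.1 ± 32.6, and VIL1 264 ± 39.9 and 243 ± 95.8, so the estimates of the list had no single direction. The ileal bile acid transporter SLC10A2 reached 15.5 FPKM in transport 3, with 0.0567 to 1.25 elsewhere. GUCA2A of the same ileal list did not stand out there, at 280 FPKM in transport 3 and 117 to 269.5 elsewhere. None of the tested genes of these lists, nor of the smooth muscle and fibroblast lists, passed the test.

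HBB, the beta globin of red cells, may share reads with other globin genes. It had 35.1, 11.6 and 21.1 FPKM in controls and 102, 123 and 45.3 after transport, all transport libraries above all controls. The log2 fold change was 1.97 ± 0.57 (SE) and an unadjusted p of 0.0105, and it did not pass over all genes (edgeR adjusted p = 0.890). ALAS2, the heme synthesis enzyme of red cell precursors, was below the filter at 0.0762 to 0.174 FPKM in controls and 0.415 to 0.806 after transport. The platelet gene PPBP had 1.19 ± 0.771 and 0.728 ± 0.478 FPKM. Other platelet genes of that list were not lower in mean after transport. ITGA2B had 9.24 ± 0.874 and 9.39 ± 1.98 FPKM, and GP9, below the filter, 0.378 ± 0.14 and 0.437 ± 0.21.

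The genes whose library pattern was closest to the mean of the 9 members were sought among all other tested genes with a symbol and a range of at least 50% of that of the mean. By the mean absolute gap in centred log2 CPM over the 6 libraries, these were FABP5 (0.0737), DYNLT3 (0.0806), ARHGAP22 (0.0829), ADGRL2 (0.0830) and MAN1C1 (0.0986), where the median of all genes tested was 0.483. FABP5, a fatty acid binding protein, had 21.4, 12.3 and 28.1 FPKM in controls and 18.3, 18.8 and 17.0 after transport, with the same low control 2 and high control 3. Of the members themselves PECAM1 was nearest to their mean, at 0.0916, and KDR farthest, at 0.572, followed by MADCAM1 at 0.533 and LYVE1 at 0.405. Each member is part of that mean, which makes its gap smaller, so these gaps are not comparable with those of other genes.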

How the data were processed

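Trizol extraction of total RNA and standard Illumina library preparation are stated per the labels' protocols. Per the file headers, the authors deposited for each gene and library a raw count and an FPKM value, in which a count of 0 is written as 0.0001. No source used here names the aligner, counting tool, strand use or genome build; coordinates follow the deposited table. Columns of the transport group were matched by group and replicate number.

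Counts were tested with edgeR 4.0.16 (R 4.3.3), TMM scaling, a model of group alone and Benjamini-Hochberg adjustment over the 12012 genes that reached 1 FPKM in 3 or more of the 6 libraries. Standard errors and 95% intervals come from the quasi-likelihood F statistic. Alternatives were DESeq2 1.42.0, limma 3.58.1 on log2(FPKM + 1) or log2(FPKM + 0.1), other scalings and filters, a replicate block and left-out libraries. Tests were checked on simulated data. CPM is the count scaled to library size by TMM, and centred log2 CPM uses a prior count of 2.

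Members and lists were chosen with earlier results of these data known. All members were named, and of each list the 2 tested genes with the smallest p. Other genes of the lists were named after their values were seen. The lists covered VEGF, angiopoietin, surface, transcription factor, lymphatic, homing, pericyte, smooth muscle, fibroblast, blood, B cell, T cell, macrophage, enterocyte and ileal genes. Deviations from the group mean correlated across genes at r = 0.217, 0.111 and 0.187 for libraries of equal number in the labels. For unequal numbers r was -0.261 to 0.101. Such deviations sum to 0 within a group, so these r values depend on each other and cannot show a pairing. The numbers were treated as pairs in an alternative only. What a number marks is not stated in the labels.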

Additional observations from a re-analysis of the deposited data

How the results depend on the processing

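The 0 calls among the endothelial genes held under every alternative run, which were DESeq2, size factors or total counts in place of TMM, no filter (10 members tested), a mean FPKM of at least 5 (3 members tested), limma with either pseudocount, the replicate block and left-out libraries. Genes called over the whole table, 2 in the main test, numbered 50 with DESeq2, 1 with a mean FPKM of at least 5, 1 with limma on log2(FPKM + 1), 5 on log2(FPKM + 0.1), 1 without control 2 and transport 3 together, and 0 to 3 with any 1 library left out. With the replicate block, which pairs libraries of equal number, 2 genes and 0 members were called. The median log2 fold change of the members was then -0.15. The difference in the log2 ratio of LYVE1 and PROX1 to PECAM1, CDH5, KDR and TIE1 was 0.47, with an exact paired p of 0.50. Since 3 pairs allow no p below 0.25, that test could make no call. With the block the counts of genes and members called were the same as in the main test. The difference in that log2 ratio was 0.12 to 0.68 with any 1 library left out. The members' median ran from -0.40 to 0.13 in the same fits. The sign of 4 members turned in some fits. PECAM1 was at 0.0127 and 0.0248 in the limma fits with pseudocounts of 1 and 0.1. LYVE1 was at -0.32 without control 2 and transport 3 together. With any 1 library left out PECAM1 ran from -0.35 to 0.17, CDH5 from -0.63 to 0.13, FLT1 from -0.44 to 0.0434 and LYVE1 from -0.40 to 0.37. VWF ran from -0.52 to -0.09, TIE1 from -0.68 to -0.13, MADCAM1 from -0.89 to -0.48, KDR from 0.10 to 1.26 and TEK from 0.00541 to 0.66, with no change of sign. The cause of these turns was not tested. With 3 libraries a group, the 95% intervals of single members reached 3.56-fold upward (KDR) and 0.357-fold downward (MADCAM1).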
